A study of Mus musculus with 18 samples.

Results

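The odorant and pheromone receptor genes of the mouse were described here in chromatin of B cells. A gene was counted when GENCODE release M21 (GRCm38) lists it as protein-coding with a symbol of the Olfr, Vmn1r or Vmn2r series, and its window was the gene body with 2 kb on both sides. This gave 1466 of 21938 protein-coding genes, of which 1135 were Olfr, 209 Vmn1r and 122 Vmn2r genes. The windows joined to 18.3 Mb, against 1088 Mb of windows of the 20472 other protein-coding genes. The rule itself reads only names and positions. Receptor genes were short, with a median of 6.35 kb against 19.3 kb for other genes, and most stood in tandem arrays: joined across gaps of up to 500 kb they formed 78 groups, 46 of them with 5 or more genes holding 1413 of the 1466. Chromosome 7 carried 398 and chromosome 2 carried 294, while X carried 9 and Y none.

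Olfr genes encode the odorant receptors of the nose, and Vmn1r and Vmn2r genes the receptors of the vomeronasal organ, which senses pheromones. All are receptors coupled to G proteins. An olfactory neuron uses a single allele of a single Olfr gene and packs the unused ones in heterochromatin, whereas a vomeronasal neuron with Vmn2r receptors can use more than one. In B cells these arrays are large stretches of genes outside the tissue they are best known for. H3K36me2, dimethylated lysine 36 of histone H3, is a broad mark of open, often transcribed or intergenic chromatin. KDM2A removes it, and a zinc finger directs KDM2A to unmethylated CG dinucleotides, as found in CpG islands. No RNA was measured in these libraries, so the silence of the genes was not checked here.

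The cells were B cells from spleens of C57BL/6 mice, taken by negative selection against CD43, Ter119 and CD4, that were either Mir155-sufficient (WT) or Mir155-deficient (KO). All groups shared a culture of 2 days at 1% oxygen with anti-CD40 (1 µg/ml), an F(ab')2 fragment against IgM (5 µg/ml) and IL-4 (4 ng/ml), and fixation with EGS and formaldehyde. Each genotype had 3 libraries per antibody and replicate 1 was male and replicates 2 and 3 female in every group; 6 input libraries brought the series to 18 samples. The labels do not say whether a library came from 1 mouse or a pool, so p-values measure the spread between these libraries.

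The peak lists held between 37447 and 106720 peaks for H3K36me2 and between 15387 and 29105 for KDM2A. The H3K36me2 lists of KO were uneven: the female lists, with 37447 and 45180 peaks over 1.63 and 1.49% of the genome, lay below the WT lists (85387 to 94136 peaks over 4.29 to 5.48%), while the male list held 106720 peaks over 3.73%. Values without single KO libraries are given beside the comparisons of H3K36me2 coverage, relative coverage and genes with a peak between genotypes. Of 10 B cell marker genes, 5 had a KDM2A peak within 2 kb of a start site in all 6 lists and none lacked one in every list, while of 8 T cell markers none had it in all 6 and 4 lacked it in every list. The counts were 0 and 4 of 6 for myeloid markers, 1 and 4 of 5 for erythroid markers and 0 and 3 of 4 for markers of olfactory neurons, of which Omp had no KDM2A peak at a start site in any list. H3K36me2 was counted over the gene and not at the start site. Its peaks were in all 6 lists at 5 of 10 B cell, 3 of 8 T cell and 2 of 6 myeloid markers. The same was so for 2 of 5 erythroid and 0 of 4 olfactory neuron markers. By bases these peaks covered 1.73 to 6.55% of the B cell marker windows and 5.38 to 23.8% of the T cell marker windows. The ranges were 11.2 to 36.1% for myeloid, 3.29 to 9.23% for erythroid and 0 to 4.59% for olfactory neuron markers.

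Sequence sets the receptor windows apart before any antibody. They held 37.7% G and C and 4.65 CG per kb, against 43.1% and 10.1 per kb in the other gene windows. At the start site the gap was wider. The RefSeq table of promoters (GRCm38.p6, 250 bases before to 50 after the start) matched 1229 of the 1464 receptor symbols. Its start sites were taken as listed and were not checked against transcripts. The 300-base promoters of receptor genes had a median of 1 CG, and 392 of 1234 (31.8%) had none, whereas promoters of other protein-coding genes had a median of 15 and 2.62% had none. Only 3 receptor promoters had 10 or more CG, a share of 0.243% against 62.2% elsewhere. The motif counted is the dinucleotide CG, which reads the same on both strands. Sequences from the places where KDM2A recurred and from promoters in H3K36me2-rich stretches follow, with each CG in capitals. The first set is 200 bases around the middle of the overlap between lists in the KDM2A intervals that reached all 6 lists in or beside a receptor window (GRCm38, plus strand; at Olfr750 the overlap is that of 5 lists), at chr6:56923785-56923984 by Vmn1r4, chr14:51064690-51064889 by Olfr750 and chr11:49088270-49088469 within Olfr56.
Vmn1r4 peak centre: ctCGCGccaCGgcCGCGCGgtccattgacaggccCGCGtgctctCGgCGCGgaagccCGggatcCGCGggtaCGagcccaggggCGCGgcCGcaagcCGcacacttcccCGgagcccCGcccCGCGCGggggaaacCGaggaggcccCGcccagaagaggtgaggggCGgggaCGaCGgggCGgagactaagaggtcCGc
Olfr750 peak centre: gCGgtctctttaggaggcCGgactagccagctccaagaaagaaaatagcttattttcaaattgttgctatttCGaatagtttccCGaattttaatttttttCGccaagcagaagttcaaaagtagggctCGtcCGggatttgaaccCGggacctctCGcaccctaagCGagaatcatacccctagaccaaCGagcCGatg
Olfr56 peak centre: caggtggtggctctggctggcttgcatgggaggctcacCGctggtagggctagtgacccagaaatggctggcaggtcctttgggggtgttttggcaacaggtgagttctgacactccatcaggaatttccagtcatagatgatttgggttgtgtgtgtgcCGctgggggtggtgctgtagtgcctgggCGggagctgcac
The second set is 3 receptor promoters as listed in the RefSeq table, from the H3K36me2-rich stretches described further on. They are Olfr372 at chr8:72057410-72057709, Olfr701 at chr7:106813879-106814178 and Olfr432 at chr1:174050125-174050424, all on the plus strand. The last 50 bases for Olfr432 begin with an ATG and hold no stop in that frame. Its listed start may thus be a coding start, and how many other receptor starts are so was not counted.
Olfr372 promoter: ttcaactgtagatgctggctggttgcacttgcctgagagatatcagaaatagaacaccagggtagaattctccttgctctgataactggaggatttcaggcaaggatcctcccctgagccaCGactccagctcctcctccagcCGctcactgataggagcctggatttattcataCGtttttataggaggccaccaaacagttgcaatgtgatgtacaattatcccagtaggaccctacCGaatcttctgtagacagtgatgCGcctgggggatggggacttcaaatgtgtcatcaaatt
Olfr701 promoter: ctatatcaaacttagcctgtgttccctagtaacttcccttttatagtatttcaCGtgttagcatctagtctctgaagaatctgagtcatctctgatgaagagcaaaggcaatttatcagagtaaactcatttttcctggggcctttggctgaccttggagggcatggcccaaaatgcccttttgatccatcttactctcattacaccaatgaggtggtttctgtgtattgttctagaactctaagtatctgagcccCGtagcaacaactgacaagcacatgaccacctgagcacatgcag
Olfr432 promoter: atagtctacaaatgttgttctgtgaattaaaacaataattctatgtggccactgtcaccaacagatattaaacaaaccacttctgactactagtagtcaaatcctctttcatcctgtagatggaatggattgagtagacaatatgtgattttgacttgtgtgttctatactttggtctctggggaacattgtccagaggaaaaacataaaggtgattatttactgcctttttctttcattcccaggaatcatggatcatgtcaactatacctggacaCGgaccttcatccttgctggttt
The Vmn1r4 centre held 31 CG in 200 bases, the Olfr750 centre 12 and the Olfr56 centre 3. The promoters held 5 (Olfr372), 2 (Olfr701) and 1 (Olfr432) in 300 bases, so that the Olfr56 centre was no richer in CG than the Olfr372 promoter.

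The first question was how much of the receptor windows lay under peaks. H3K36me2 peaks covered 0.855, 1.32 and 1.19% of receptor bases in the WT libraries and 0.785, 0.582 and 0.536% in the KO libraries, against 5.17, 6.61 and 6.49% and 4.42, 1.70 and 1.51% of the bases of other gene windows. KDM2A peaks covered 0.111, 0.0545 and 0.103% (WT) and 0.0432, 0.0576 and 0.0852% (KO) of receptor bases, against 2.24, 1.60 and 1.8% and 1.06, 0.927 and 1.49% elsewhere. The receptor windows were the lower set in every library of both antibodies. The mean log2 ratio was -2.15 for H3K36me2, a 4.44-fold lower coverage, and -4.35 for KDM2A, a 20.4-fold lower coverage. Each was below 0 in 6 of 6 libraries, with p = 0.0312 in the two-sided exact sign-flip test, the smallest that 6 libraries allow, and an adjusted p of 0.075 over the 12 tests of this report (Benjamini-Hochberg). The size of the KDM2A gap moved with the choice of bases and peaks, always to the same side: the log2 ratio was -3.06 without the bases near start sites of other genes, -5.08 against other genes no longer than the longest receptor gene and -5.88 with peaks of −log10 q of at least 2.

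**Figure D1:**
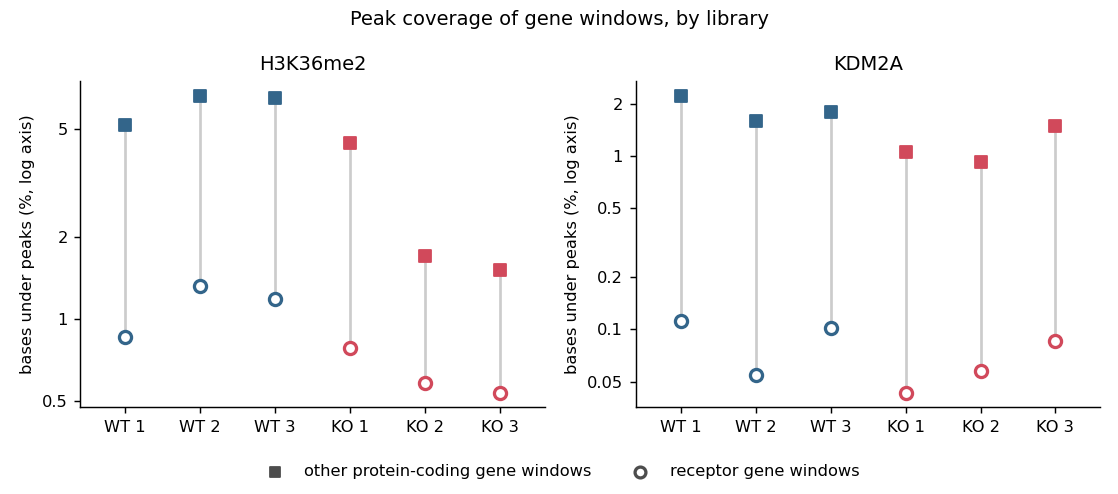
Percent of bases under H3K36me2 (left) and KDM2A (right) peaks in receptor gene windows (open circles) and other protein-coding gene windows (squares) for each library, on log axes; blue is WT and red is KO. Every circle lies below its square, for H3K36me2 between 0.536 and 1.32% and for KDM2A between 0.0432 and 0.111%.

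Part of the receptor sequence is repeated in the genome, and reads from such places cannot be placed uniquely. Words of 50 bases found once in the main chromosomes made up 84.0% of the receptor windows and 93.0% of the other windows, with medians of 94.8% over Olfr, 84.4% over Vmn1r and 78.2% over Vmn2r genes. Over the 933 receptor genes with at least 90% of such words the log2 ratio was -2.47 for H3K36me2 and -4.58 for KDM2A, as low as over all receptor genes. The read filters used before peak calling were not given in the sources used here.

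Most receptor genes had no peak at all. In the 12 lists together 1254 of the 1466 (85.5%) were without any peak, against 19.6% of other protein-coding genes. None of the 9 X-linked receptor genes had one. H3K36me2 peaks touched 102 receptor genes in at least 1 list and KDM2A peaks 129, and 19 genes had both. The number per library ran from 44 to 66 genes for H3K36me2 and from 17 to 39 for KDM2A, where between 5963 and 11494 and between 9621 and 12101 of the 20472 other genes were touched.

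The antibodies differed in how often the same receptor gene came back. For H3K36me2, 27 receptor genes had a peak in all 6 lists and 40 in 4 or more, shares of 1.84% and 2.73%, where 18.6% and 42.3% of all protein-coding genes did so. For KDM2A, 2 had a peak in all 6 lists and 6 in 4 or more, where 30.7% and 47.4% of all protein-coding genes did. Of the 129 receptor genes with a KDM2A peak, 109 had it in 1 list only. By position the difference was the same: of 164 merged KDM2A intervals in receptor windows, 151 (92.1%) came from a single list, against 70.7% of all 67881 KDM2A intervals, whereas for H3K36me2 the shares were 61.7% of 266 intervals and 59.2% of all. Receptor genes are also shorter than other genes, and the part of length in these counts of genes was not tested.

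**Figure D2:**
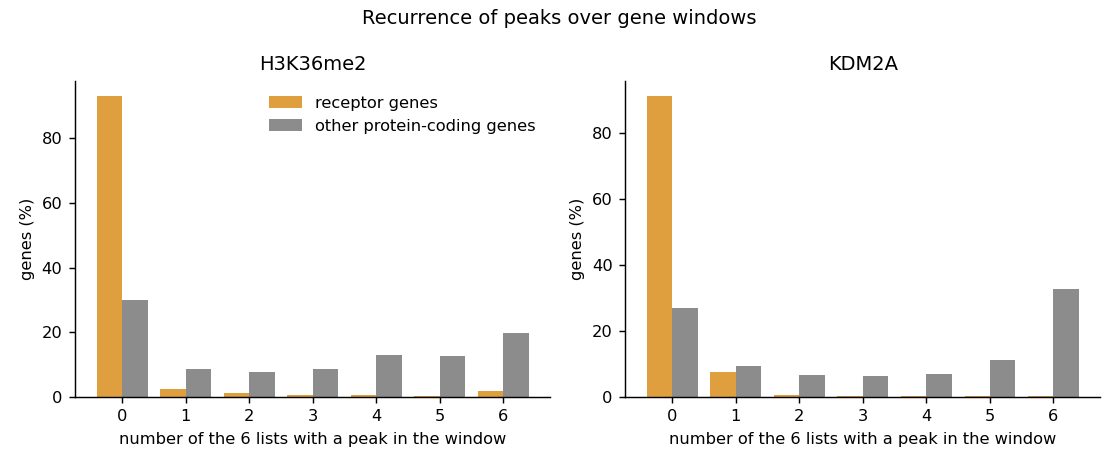
Percent of receptor genes (orange) and other protein-coding genes (grey) with a peak in 0 to 6 of the lists of H3K36me2 (left) and KDM2A (right). The orange bar at 0 is 1364 of 1466 genes for H3K36me2 and 1337 for KDM2A.

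KDM2A intervals found in 4 or more lists were few, 5 in the receptor windows, and their places were specific. The first lay at chr6:56923422-56924478, over the starts of both Nt5c3, which encodes a cytosolic nucleotidase, and the vomeronasal receptor gene Vmn1r4. Its WT folds over the local control were 3.36, 3.07 and 3.20, and its KO folds 2.68, 2.72 and 2.56. All 3 WT values were above all 3 KO values, and the log2 difference KO minus WT was -0.22 ± 0.10 (SE, n = 3 per genotype), with an unadjusted p of 0.0450 and an adjusted p of 0.898 in limma over 5250 intervals. The next lay at chr11:49087984-49090294, over a transcript start of Ifi47, an interferon-inducible GTPase gene, inside the long Olfr56 record. Its folds were 3.24, 3.47 and 2.73 in WT and 2.55, 3.08 and 3.12 in KO, which overlap. The interval by Olfr750, at chr14:51063399-51065766, was 5.74 kb from the nearest other coding start, that of Rnase12, with folds of 3.21, 2.71 and 2.89 in WT and 3.27, 2.59 and 3.37 in KO, which overlap as well. The remaining 2 were in 5 lists at the start of Ndufa10, a subunit of respiratory complex I, beside Olfr1416, and in 4 lists at the start of Zfp202, a zinc finger gene, beside Olfr986, and not all of their peaks reached the receptor window. So 4 of the 5 covered a start site of a gene that is no receptor.

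Other receptor genes with KDM2A peaks in 4 or 5 lists did not have them in one place. Vmn2r120, a vomeronasal receptor gene, had a peak in 5 lists, yet no more than 2 of these shared an interval. Vmn2r103 and Olfr373 had peaks in 4 lists, and again at most 2 lists met. Of the 21 genes of the largest array that carried a KDM2A peak, each carried it in a single list. KDM2A peaks in receptor windows were also narrow: their median width was between 307 and 402.5 bp, against 565 to 699 bp for all other KDM2A peaks. Their median −log10 q averaged 1.64 ± 0.18 for WT and 1.35 ± 0.07 for KO (SD, n = 3), against 1.87 ± 0.10 and 1.76 ± 0.03 for the other peaks.

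Pooled over intervals, CG density was higher in recurrent than in single KDM2A intervals, though not in each: the Olfr56 centre printed above held 3 CG in 200 bases. The 151 single-list intervals in receptor windows held 7.14 CG per kb, and the 5 found in 4 or more lists held 45.3 per kb. Over the genome the order was the same, with 14.1 per kb in intervals of 1 list and 38.9 per kb in intervals of all 6. Receptor windows as a whole held 4.65 per kb. These are descriptions over intervals, with no test.

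H3K36me2 in the receptor windows was concentrated in few genes. The 40 genes with a peak in 4 or more lists were picked by these same lists, so the values that follow only describe them. Their windows carried between 91.3 and 96.1% of all H3K36me2 bases in receptor windows. In them H3K36me2 covered 20.5, 30.7 and 27.9% of bases in WT and 17.9, 13.8 and 12.8% in KO, above the level of the other gene windows in each library. The 40 lay in 17 of the 78 groups, 7 of them among the 53 genes in groups of fewer than 5 (13.2%) and 33 among the 1413 in groups of 5 or more (2.34%). The nearest start site of another coding gene was at a median of 33.2 kb, against 143 kb for the 1364 receptor genes without any H3K36me2 peak. Of the 40, 23 were among the outer 3 genes of either end of their group or in a small group (57.5%), against 273 (20.01%) of the 1364. Their median share of unique words was 95.9%, against 93.3%.

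Many of these genes stood in 6 runs of neighbours. The highest coverage was over Olfr372, Olfr373 and Olfr374, an array of 3 genes on chromosome 8 beside Tpm4, a tropomyosin gene, where H3K36me2 covered 61.3, 72.8 and 82.3% in WT and 55.8, 30.5 and 37.8% in KO. All WT values there were above all KO values, as they were in these lists over the other gene windows (5.17 to 6.61% against 1.51 to 4.42%), so that nothing particular to this run or the next ones is read from it. The next run, Olfr433 to Olfr424 at chr1:174040705-174138257, held 7 genes and began 8.90 kb from Ifi205, an interferon-inducible gene of the Pyhin family. It was covered to 30.6, 47.0 and 40.2% in WT and 20.9, 21.3 and 25.8% in KO. The run of Vmn2r26 and Vmn2r27 on chromosome 6 was covered to 16.9, 24.8 and 25.3% in WT and 14.6, 11.6 and 7.94% in KO. Olfr549 to Olfr551, near the end of the array of 129 genes on chromosome 7, with the cytosolic antibody receptor gene Trim21 among them, had 15.6, 24.5 and 19.7% in WT and 17.4, 2.82 and 11.9% in KO, which overlap. Olfr56 and Olfr1396 on chromosome 11 had 19.2, 30.1 and 33.0% in WT and 20.7, 16.5 and 14.0% in KO. The Olfr56 record of GENCODE M21 spans 156 kb and holds the start sites of 6 other coding genes, among them the interferon-inducible GTPases Tgtp1, Tgtp2 and Ifi47, so its marks are also those of these genes.

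The run with the most genes was Olfr693 to Olfr702, 9 genes over 159 kb at chr7:106675005-106833893. H3K36me2 covered 28.8, 45.5 and 39.0% of it in WT and 24.4, 24.9 and 22.5% in KO. The rest of the same cluster, up to Olfr716, was covered to 0.0676, 1.3 and 0.399% in WT and to 0.126, 0 and 0% in KO. No other protein-coding start site was near: the closest, of Nlrp14, was 333 kb away. GENCODE M21 lists in this stretch a long intergenic RNA gene, 4930458B22Rik, whose start faces that of Olfr701. The KDM2A lists covered at most 0.319% of the run. Of the 26 genes of the array, 13 had an H3K36me2 peak in some list, and the 9 of the run had it in 4 or more.

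**Figure D3:**
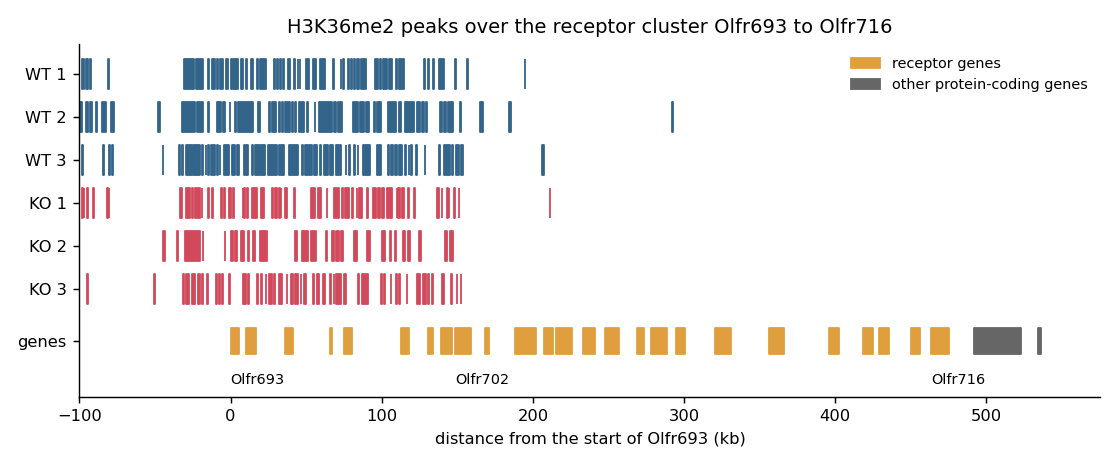
Map of the chromosome 7 receptor cluster Olfr693 to Olfr716, in kb from the start of Olfr693, with the H3K36me2 peaks of each library as bars (blue WT, red KO) and genes below (orange receptor, grey other coding). Peaks fill the left part as far as Olfr702 in all 6 libraries, where coverage was 22.5 to 45.5%, and are sparse to the right of it.

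Named by gene, the strongest H3K36me2 signals were modest. Among genes marked in all 6 lists the mean of the highest fold was greatest in Olfr56 (3.06), Olfr372 (3.01), Vmn2r26 (2.90), Olfr694 (2.89), Olfr373 (2.86), Olfr266 (2.85), Olfr698 (2.85), Olfr272 (2.84), Olfr701 (2.84) and Olfr432 (2.83). Olfr432 was covered to 53.1, 71.9 and 63.7% in WT and 30.8, 55.6 and 46.7% in KO, so that its genotypes overlapped. Olfr272, in a group of 4 genes on chromosome 4 at 70094 bp from the nearest other coding start, had 21.02, 16.8 and 22.1% in WT and 19.7, 18.1 and 9.82% in KO. Olfr279, beside the milk protein gene Lalba on chromosome 15, had 42.2, 25.5 and 13.3% in WT and 18.3, 6.78 and 8.33% in KO. In both the lowest WT library was below the highest KO library. Olfr266, a single gene at 30336 bp from the start of Cd53, a tetraspanin of leukocytes, had 48.7, 73.5 and 72.8% in WT and 45.8, 59.3 and 24.6% in KO. Its H3K36me2 interval of all 6 lists, at chr3:106800872-106852480, spanned 51.6 kb and no other coding gene. Median folds of H3K36me2 peaks in receptor windows, 2.49 to 2.72, lay close to those of the other peaks, 2.48 to 2.73.

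The next question was whether the arrays differed from the chromatin beside them. Inside the 46 arrays of 5 or more genes, H3K36me2 covered 1.06, 1.60 and 1.5% of bases in WT and 0.946, 0.648 and 0.538% in KO. In the 500 kb on each side it covered 6.80, 8.6 and 8.65% in WT and 5.72, 2.95 and 2.42% in KO. KDM2A covered 0.101 to 0.289% inside and 0.883 to 2.38% in the flanks. The arrays were lower in every library of both antibodies: the mean log2 ratio was -2.43 for H3K36me2 (5.40-fold lower) and -3.08 for KDM2A (8.43-fold lower), each in 6 of 6 libraries with p = 0.0312 in the exact sign-flip test and an adjusted p of 0.075. With flanks of 200 kb the KDM2A ratio was -2.41. By array, 41 of the 46 were below their flanks in mean H3K36me2 coverage and 41 of 46 in mean KDM2A coverage.

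The step lay near the outermost gene. Pooled over both ends of the 46 arrays in bins of 50 kb, H3K36me2 in WT replicate 2 fell from 9.28% at 450 to 500 kb outside to 3.91% in the last outer bin, 2.66% in the first inner bin and 1.46% at 450 to 500 kb inside. In KO replicate 3 the same bins held 2.61, 1.19, 1.13 and 0.631%. KDM2A in WT replicate 1 went from 3.51% through 0.742% to 0.0907% in the first inner bin, was 0.525% at 150 to 200 kb inside and 0.0687% at 450 to 500 kb. In all 6 libraries KDM2A was higher at 150 to 200 kb inside than in the first inner bin. The decline therefore began outside the first receptor gene.

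**Figure D4:**
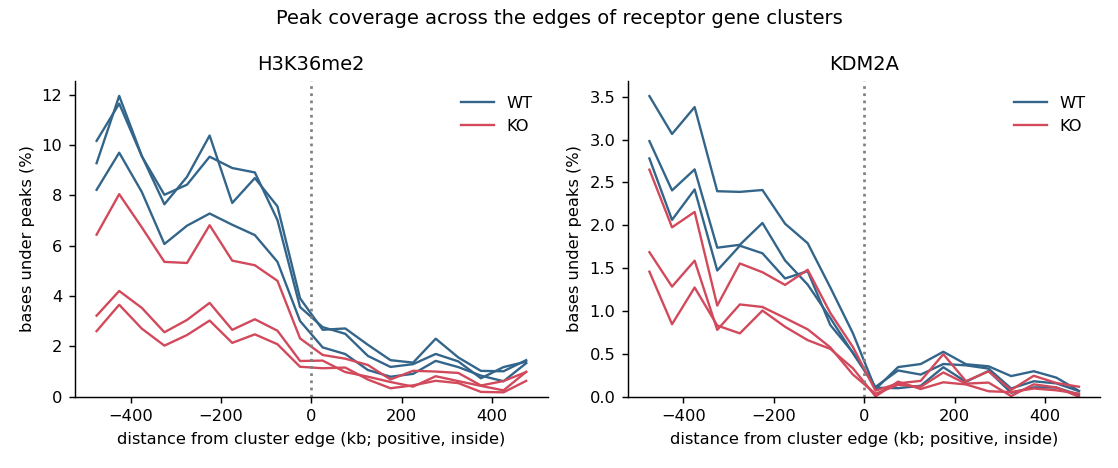
Percent of bases under H3K36me2 (left) and KDM2A (right) peaks in bins of 50 kb against distance from the edge of the 46 arrays of 5 or more receptor genes, negative outside and positive inside, with 1 line per library (blue WT, red KO). In WT replicate 2 the H3K36me2 line falls from 9.28% at the far left to 1.46% at the far right.

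Between arrays the levels ranged widely. Of 32 arrays of 10 or more genes, 9 had no H3K36me2 base in any list and 24 had no gene marked in 4 or more lists, and the median of their mean coverage was 0.0883% against 4.99% in their flanks. The largest array, 227 Olfr genes from Olfr987 to Olfr1274-ps over 5.07 Mb of chromosome 2, was among the 9 at 0, although its flanks averaged 17.7%. The larger of the others at 0 were 39 genes from Olfr1275 to Olfr1318 on chromosome 2, 33 from Olfr291 to Vmn2r79 on chromosome 7, 30 from Olfr20 to Olfr412 on chromosome 11 and 28 from Olfr338 to Olfr368 on chromosome 2. At the other end, the mean was 10.5% in Olfr693 to Olfr716, 9.07% in Olfr433 to Olfr220 on chromosome 1, 7.98% in Olfr56 to Olfr1380 on chromosome 11 and 6.50% in Olfr722 to Vmn2r89 on chromosome 14. The last of these encloses 26 other coding genes, lay above its flanks (0.0048%) and had only 1 receptor gene marked in 4 or more lists, Olfr750. The array of 129 genes on chromosome 7 from Olfr543 to Olfr692, which encloses 27 other coding genes, had 2.54% with 22 receptor genes touched in any list.

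**Figure D5:**
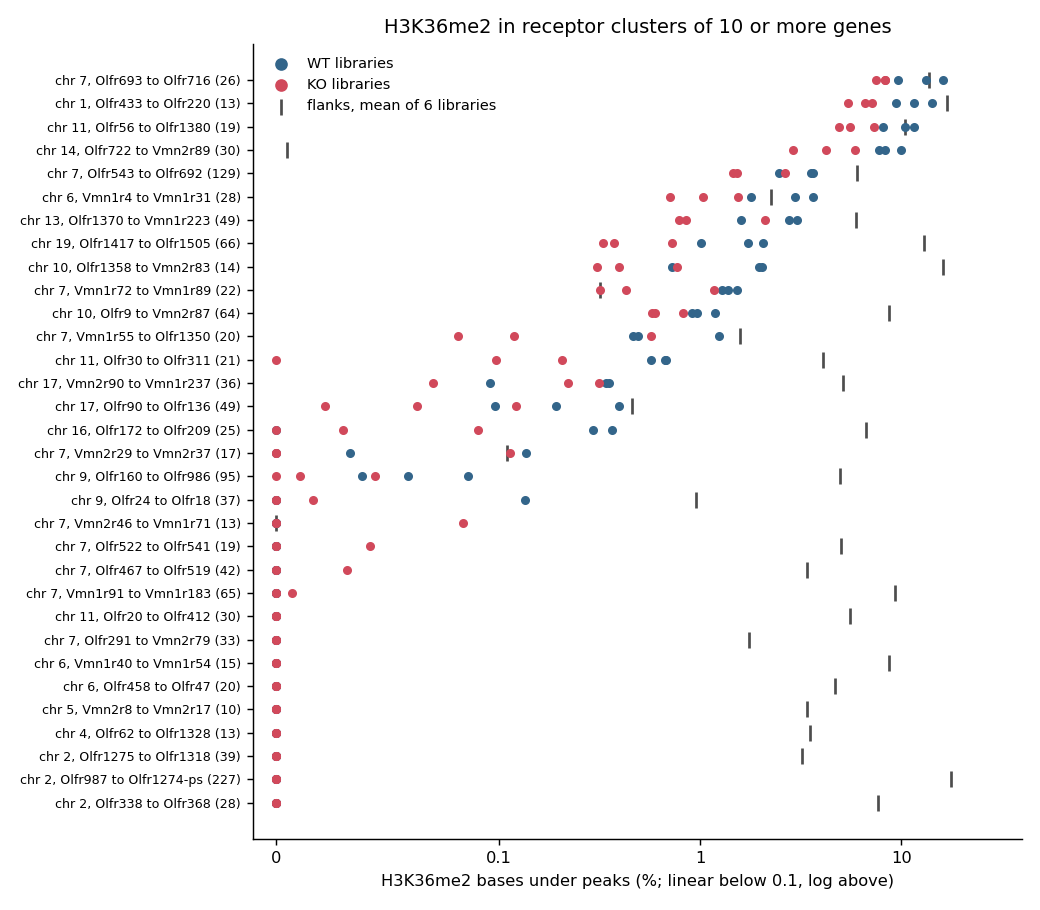
Percent of bases under H3K36me2 peaks in each of the 32 arrays of 10 or more receptor genes (number of genes in brackets), with 1 point per library (blue WT, red KO; red covers blue where both are 0) and a tick for the mean of the flanks; the axis is linear below 0.1 and logarithmic above. Of the arrays, 9 lie at 0 in all libraries and the top one, Olfr693 to Olfr716, averages 10.5%.

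The receptor families were compared with each other. H3K36me2 covered 1.17, 1.77 and 1.61% of Olfr windows in WT and 1.08, 0.778 and 0.757% in KO, against 0.281, 0.526 and 0.428% and 0.258, 0.229 and 0.137% of the joined Vmn1r and Vmn2r windows. Olfr windows were higher in 6 of 6 libraries, by a mean log2 ratio of 2.00 or 4.00-fold, with p = 0.0312 in the exact sign-flip test and an adjusted p of 0.075. The ratio was 1.62 on the log2 scale without Olfr56, 2.70 over genes with at least 90% unique words, 2.75 with an equal number of strongest peaks per list and 2.70 with −log10 q of at least 2. Counted by genes the gap was smaller. An H3K36me2 peak touched 3.26 to 5.20% of Olfr, 1.44 to 3.35% of Vmn1r and 1.64 to 3.28% of Vmn2r genes per library. Most H3K36me2 bases lay in few genes that all libraries share, so this p does not speak for the families as a whole. For KDM2A the order of the families depended on which peaks were counted: the mean log2 ratio was 0.24 (exact p = 0.312, adjusted p = 0.417), with Olfr higher in 3 of 6 libraries, and it turned to -0.14 without Olfr56. With lists shortened to an equal number of their strongest peaks it was 0.61, with Olfr higher in 6 of 6 libraries (exact p = 0.0312), and with −log10 q of at least 2 it was 0.83 (exact p = 0.0625). Vmn2r genes, which have long introns, had a KDM2A peak in 3 to 12 of 122 per library and Vmn1r genes in 1 to 7 of 209.

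The last question was whether loss of Mir155 moved either readout at the receptors. H3K36me2 coverage of receptor windows averaged 1.12 ± 0.24% for WT and 0.635 ± 0.132% for KO (SD, n = 3), with all 3 KO libraries below all 3 WT libraries and p = 0.10 in the two-sided exact permutation test, the smallest that 3 against 3 allow (adjusted p = 0.20). The difference was -0.487 percentage points, -0.563 without the male KO library and -0.461 and -0.438 without either female one. With lists of an equal number of strongest peaks coverage was 0.531, 0.754 and 0.805% for WT and 0.337, 0.582 and 0.464% for KO, which overlap (difference -0.236, exact p = 0.20), and with −log10 q of at least 2 the difference was -0.232. The other gene windows moved in the same direction, from 6.09 ± 0.80% to 2.55 ± 1.63%. Relative to them the log2 ratio was higher by 0.61 in KO (exact p = 0.30, adjusted p = 0.417), and the genotypes overlapped, since the male KO library had a ratio of 0.177 against 0.165 to 0.200 in WT and the female KO libraries 0.342 and 0.355. Leaving out the male KO library gave 0.93, and leaving out KO replicates 2 and 3 in turn gave 0.46 and 0.43. With peaks of −log10 q of at least 2 only, it turned to -0.46. The number of receptor genes with an H3K36me2 peak averaged 53.7 ± 4.5 for WT and 51.7 ± 12.4 for KO (exact p = 0.80), and the sign of the difference was not stable. The value became -9.17 when the male KO library was left out, 1.83 and 1.33 without KO replicates 2 and 3, 0.167 without WT replicate 2 and 5.33 with an equal number of strongest peaks per list.

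For KDM2A the receptor genes with a peak numbered 39, 20 and 37 in WT and 17, 24 and 34 in KO, which overlap (exact p = 0.40, adjusted p = 0.48). With lists of equal length the counts were 16, 11 and 15 for WT and 17, 24 and 18 for KO, so that every KO library was above every WT library (difference 5.67, exact p = 0.10, the smallest possible). Coverage averaged 0.0894 ± 0.0305% for WT and 0.0620 ± 0.0213% for KO (exact p = 0.30, adjusted p = 0.417), and its difference turned to 0.0064 percentage points with lists of equal length (exact p = 0.60). The difference in coverage was -0.0274 as first counted, -0.0160 without Olfr56 and -0.0033 over genes with at least 90% unique words. Over those genes the number with a peak differed by -1. Relative to other genes the log2 ratio was higher by 0.20 in KO (exact p = 0.50, adjusted p = 0.545), with overlap, and it turned to -0.02 without WT replicate 2 and to -0.52 with −log10 q of at least 2. It was 0.60 with lists of equal length, where the genotypes did not overlap (exact p = 0.10, the smallest possible), 0.61 without bases near other start sites and 0.73 over genes with at least 90% unique words. Both lists of KO peaks in the whole genome were shorter on average than those of WT, and the depth of the libraries is unknown, so a change in coverage and a change in depth cannot be told apart.

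Gene by gene, no receptor gene had a KDM2A peak in all 3 lists of a genotype and none of the other, where 0.944% of all protein-coding genes had it in WT only and 0.1% in KO only. The same held for H3K36me2, with 0 receptor genes in either direction against 1.63% of all genes in WT only and 0.0228% in KO only. Such a pattern needs a peak in exactly 3 lists, which 4 receptor genes had for KDM2A and 9 for H3K36me2. Peak folds gave no call either, though sites without a peak in some list could not enter this fit. Among intervals with a peak in all 6 lists, limma called 0 of 5250 for KDM2A and 0 of 8518 for H3K36me2 (0% each, adjusted p under 0.05), with 281 and 482 at an unadjusted p under 0.05. Of these intervals 3 and 25 lay in receptor windows, with 1 and 0 at an unadjusted p under 0.05. The 25 H3K36me2 intervals had a median log2 fold difference KO minus WT of -0.02, with 10 higher in KO. Without the male KO library limma again called 0 intervals for H3K36me2.

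Genes of the olfactory and vomeronasal pathways outside the receptor families were read from fixed lists. Of 9 genes of olfactory transduction, such as Gnal, the olfactory G protein subunit, and Cnga2, a subunit of the cyclic nucleotide channel, none had a KDM2A peak at a start site in all 6 lists and 5 had none in any. None had H3K36me2 in all 6 lists. Of 11 factors of receptor gene choice, many of them used widely, 5 had KDM2A at a start site in all 6 lists, namely Ldb1, Atf5, Lbr, Kdm1a and Bptf, and 3 had H3K36me2 in all 6, namely Ebf1, Kdm1a and Bptf. Ebf1, a factor that B cells and olfactory neurons share, had KDM2A at a start site in 5 lists. Of 4 genes of receptor traffic Ric8b had both in all 6 lists, and of 6 vomeronasal genes Gnai2, a widely used G protein subunit, had KDM2A in all 6. Other chemoreceptor families differed among themselves. All 15 Taar and 7 Fpr genes lacked a KDM2A peak at a start site in every list, as did 33 of 35 Tas2r taste receptor genes. No H3K36me2 peak in any list was found at 13 of the 15 Taar, 5 of the 7 Fpr and 31 of the 35 Tas2r genes. Of 3 Tas1r taste receptor genes none lacked KDM2A at a start site or H3K36me2 in every list, and Tas1r1 had KDM2A at a start site in 6 lists and H3K36me2 in 5, with H3K36me2 over 0 to 8.34% of the Tas1r windows.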

How the data were processed

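Chromatin of cultured splenic B cells was profiled by ChIP-seq, and 12 peak lists of single libraries were used. Per the methods, the authors used BWA with GRCm38, and MACS2 for broad peak calling, run within nf-core/chipseq. The deposited fold of a peak is a ratio over the local control that no scaling between libraries followed. Deposited beside it are −log10 p and −log10 q values (smallest −log10 q 1.0), and a deposited score that was not used. Read filters were not given in the sources used here, and the lists carry no totals of reads, so depth is unknown and no counting interval is given.

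Coverage was the percent of bases of the joined windows under peaks, and a gene was touched when a peak overlapped its window by 1 bp. Arrays were receptor genes joined over gaps of up to 500 kb. Genotypes were compared by two-sided exact permutation of labels, receptors with other genes, flanks or families by exact sign flips of the 6 log2 ratios, with a floor of 1 median peak width for a family without peaks. Peaks overlapping between libraries were merged, and log2 folds of intervals in all 6 lists, centred on each library's median, were fitted with limma 3.58.1 (Benjamini-Hochberg). Scripts (Python, R 4.3.3) were tested on simulated data. Named genes had a peak in 4 or more of 6 lists, ordered by lists and mean highest fold, or in all 3 libraries of 1 genotype only, and arrays of 10 or more genes were named by the 4 highest and lowest means. Genes chosen after their values were seen are Olfr1416, Olfr986 and those enclosed by arrays. Members, lists and tests were chosen with earlier results of these data known. Alternatives were stricter peaks, equal list lengths, other windows, gaps and flanks, left-out libraries and a replicate block.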

Additional observations from a re-analysis of the deposited data

Results flagged for a closer look

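Of 12 measures (for each antibody peaks at receptors, receptor genes with a peak, coverage, log2 ratio to other genes, arrays over flanks and Olfr over Vmn), in 3 the male pair moved opposite to every pairing of female libraries; no test of male against female was made, and each male value is 1 library minus 1 library. Receptor genes with an H3K36me2 peak were 17 more in KO than in WT in the male pair and lower by 11.5 (-11.5) in the females. The number of H3K36me2 peaks in receptor windows was 46 higher in the male KO library and 41 lower (-41) in the female mean. The whole H3K36me2 lists moved the same way: KO minus WT was 424 other genes with a peak and 21333 peaks in the male pair, and -5244.5 genes and -50638.5 peaks in the female mean. For KDM2A, the log2 ratio of receptor to other gene coverage was lower in KO by 0.28 in the male pair (-0.28) and higher by 0.44 in the females. The male KO list of H3K36me2 is the one that held 106720 peaks, and 16 receptor genes had an H3K36me2 peak in that list only, against 2 to 8 for each of the other lists. Sex and library cannot be told apart here.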

How the results depend on the processing

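Of 86 alternatives other than leaving out a library, 78 kept direction and side of the threshold (an unadjusted p of 0.05; after adjustment the sign-flip results at 0.0312 stand at 0.075), 7 reversed and 1 passed it. The permutation tests between genotypes could not cross the threshold, since their smallest p is 0.10, or 0.25 with the replicate block. For them only the direction could change. The limma counts were 0 in every setting and have no direction, so the 78 include results whose side was fixed. With every list shortened to its strongest peaks at a common length, the KO minus WT difference in receptor genes with a peak turned to 5.67 for KDM2A and 5.33 for H3K36me2, KDM2A coverage turned to 0.0064, and KDM2A Olfr over Vmn rose to 0.61 (p = 0.0312 by exact sign flips). With −log10 q of at least 2 the relative coverage turned to -0.52 (KDM2A) and -0.46 (H3K36me2). KDM2A Olfr over Vmn turned to -0.14 without Olfr56 and to -0.0618 with receptor windows of at least 90% unique words, both chosen after seeing the data. The cause was not tested. No sign-flip test on 5 libraries can go below 0.0625, so leaving out a library moved these results past the unadjusted threshold by size alone: the log2 ratios stayed between -4.42 and -4.24 (KDM2A members over other genes), -3.12 and -2.98 (KDM2A clusters over flanks), -2.28 and -2.06 (H3K36me2 members), -2.49 and -2.38 (H3K36me2 clusters) and 1.91 and 2.05 (H3K36me2 Olfr over Vmn). The left-out ranges of KO minus WT were -13 to -3 (KDM2A genes), -9.17 to 1.83 (H3K36me2 genes), -0.0194 to 0.38 (KDM2A relative coverage, below 0 without WT replicate 2) and 0.43 to 0.93 (H3K36me2 relative coverage), -0.0449 to -0.0165 (KDM2A coverage) and -0.621 to -0.387 (H3K36me2 coverage), and KDM2A Olfr over Vmn stayed between 0.12 and 0.36; H3K36me2 genes were above 0 without WT replicate 2 (0.167), KO replicate 2 (1.83) or KO replicate 3 (1.33). With the replicate block, limma again called 0 intervals for each antibody, and the block changed no call. Correlations of deviations were -0.116 to 0.144 for same-numbered libraries and -0.233 to 0.209 for differently numbered ones. With 3 libraries per group this cannot tell whether the numbers pair them. Depth is unknown, which limits every comparison of genotypes.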

Other observations

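Receptor pseudogenes, 506 Olfr and Vmn records of other biotypes that the rule left out, were measured in the same way. Between 11 and 22 of them (2.17 to 4.35%) had an H3K36me2 peak per library and between 0 and 7 a KDM2A peak. Outside the windows of coding receptors, H3K36me2 covered 0.771, 1.1 and 1.11% of their windows in WT and 0.914, 0.521 and 0.335% in KO. KDM2A covered at most 0.0701% and, in KO replicate 1, none, below the coverage of the coding receptors in each of the 6 libraries.

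Vmn2r windows were the most repeat-rich of the receptor families, with 44.8% of bases soft-masked in the reference against 36.9% for Vmn1r, 30.7% for Olfr and 27.5% for other coding gene windows. KDM2A peaks within 2 kb of a receptor start and of no other start made up between 22.2 and 48.6% of those in receptor windows. For H3K36me2 peaks the share was between 38.4 and 44.2%. The share of window bases that lie this near a receptor start was not computed, so no preference for receptor starts is read from these values.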
